A study of Homo sapiens with 4 samples.

Results

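Loci with 4 or more alternative poly(A) sites were examined in HEK293 cells, an established human embryonic kidney line, after depletion of a 3′ end processing factor. There were 975 such loci among 18156 in all (5.37%). Members were chosen from pooled 3′ end counts. On each strand the most read position took all positions within 25 nt and became a site, and sites were kept from a mean of 1 RPM upward (RPM is the read number scaled to the library total). The most used site then took the sites of its strand within 10 kb, which made a locus. Those holding 5% or more of the mean RPM of the locus were retained. A member had at least 4 of them and at least 50 reads over them in every library. A further 45 loci had 4 or more sites but fewer reads. Because the read numbers of all libraries chose the sites, site numbers, mean site use and locus depth describe the choice and are not findings.

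Most human genes have more than one poly(A) site. Cleavage of the pre-mRNA at a site near the stop codon gives a short 3′ UTR, and cleavage at a site further downstream gives a long one that carries additional binding sites for microRNAs and RNA-binding proteins. Cleavage factor I, of which CF Im 68 is a large subunit, binds UGUA elements upstream of the cleavage position. CstF-64, a subunit of the cleavage stimulation factor, contacts U- and GU-rich RNA downstream of it. Where several sites stand in tandem, RNA polymerase transcribes the most 5′ site before the others, so the order of sites is also the order in which they appear in the nascent RNA.

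The 4 libraries, 1 per group, came from HEK293 cells that received no siRNA, a control siRNA (scrambled-A), an siRNA against CstF-64 or an siRNA against CF Im 68. Cells given siRNA were harvested 3 days later. Values are given in this order of libraries throughout. A-seq sequences the RNA next to the poly(A) tail, so that each read marks a cleavage position, but priming within A-rich stretches of RNA was not separated here. Library totals lay between 7343112 reads in the CstF-64 library and 15806975 without siRNA, and members held 3.68 to 4.56% of them. No group had a replicate. A difference between 2 libraries therefore has no replicate check, and the difference between the 2 control libraries, which also differ in treatment, is given as background. Depletion of the targeted genes was not checked here, as no annotation of the build was used.

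The members had 4373 sites. Of the loci, 629 had 4 sites, 245 had 5, 77 had 6, 22 had 7 and 2 had 8. They lay on both strands, 526 on plus and 449 on minus, with 101 on chromosome 1 and 11 on chromosome 21. The distance from the most 5′ to the most 3′ site had a median of 3465 nt and quartiles of 2015 and 5870 nt. It ranged from 162 to 18593 nt, and 44 members spanned more than 10 kb. A locus was defined by distance alone and can hold the ends of more than 1 gene or of transcripts with different last exons. Neighbouring sites were a median of 545 nt apart. In 16.9% of 3398 intervals the distance was 100 nt or less, so that some neighbours can be parts of a single broad site. In 531 members (54.5%) all intervals exceeded 100 nt.

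Members sat close to the limits of the rule in several cases. The weakest site retained in a 4-site member, at 63840840 on chromosome 14 (minus strand), had 5.0% of its locus, and the strongest site left out of a 3-site locus, at 145667731 on chromosome 5 (plus strand), had 4.99%. There were 72 4-site members with a site of 5 to 5.5% and 77 3-site loci with a further site of 4.5 to 5%. The member with the fewest reads, on chromosome 15 (minus strand) at 42830019, had 50 in its poorest library, and the locus left out with the most, on chromosome 6 (plus strand) at 46114331, had 49.

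With sites chosen on all libraries, mean use without depletion increased toward the 3′ side. In 4-site members the mean share of locus reads at the sites from most 5′ to most 3′ was 20.3%, 23.3%, 27.5% and 28.8% without siRNA. With control siRNA the same sites had 20.3%, 24.0%, 27.4% and 28.3%. The values in the CstF-64 library were 21.7%, 24.7%, 27.0% and 26.5%. With CF Im 68 siRNA the order of the means was turned around, with 29.4% at the most 5′ site, 25.5% at the second, 23.2% at the third and 21.9% at the most 3′ site.

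The same turn was seen with more sites. In 5-site members the means with CF Im 68 siRNA were 26.1%, 22.2%, 17.2%, 17.2% and 17.3%, against 15.8%, 18.0%, 19.4%, 23.6% and 23.2% with control siRNA. Only the 5′ part of these loci was above the controls, that is the most 5′ and the next site, while the middle site and both sites 3′ of it were below. In 6-site members the most 5′ site had 12.2% and 12.1% in the controls and 20.0% with CF Im 68 siRNA, and the next one 16.7% in each control and 21.9%. The third site had 15.4%, 15.3% and 15.4% in these libraries, and the sites 3′ of it had less with CF Im 68 siRNA than in either control. The most 5′ site of the 22 7-site loci had 8.59% and 9.26% in the controls, 11.1% in the CstF-64 library and 25.4% with CF Im 68 siRNA. At the most 3′ site of these loci the means were 19.0% and 19.0%, 15% and 11.6%. Shares of a locus sum to a fixed total, so a higher share at some sites requires a lower share at others.

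**Figure D1:**
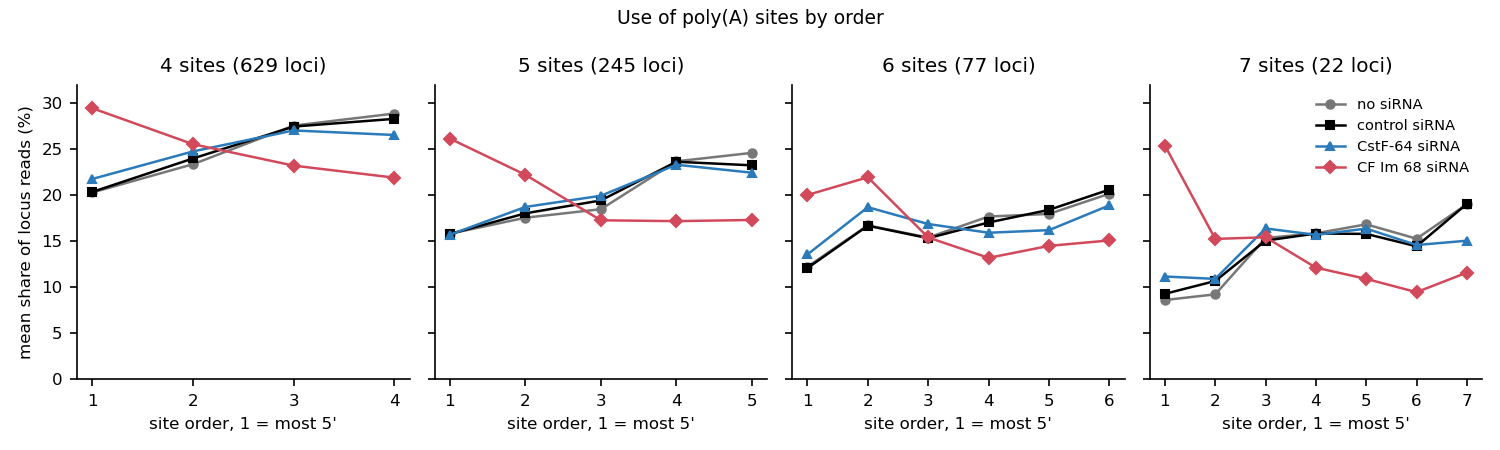
Mean share of locus reads (vertical axis, percent) at each site from the most 5′ (1) to the most 3′ (horizontal axis), in members with 4, 5, 6 and 7 sites, with 1 line per library. The control lines mostly rise from left to right, whereas the CF Im 68 line is highest at the most 5′ site, or at the next one in 6-site loci, and the CstF-64 line stays near the controls.

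The choice of sites on all libraries bears on these means. In 164 members (16.8%) the most 5′ site had under 5% in the mean of the controls and was retained on the mean of all 4 libraries, while this held for the most 3′ site in 17 members (1.74%). With sites chosen on the 2 control libraries alone, 857 loci had at least 4 sites, 636 of them centred on the same most used site as a member. In the 563 of these with 4 sites, the most 5′ site had 23.3% and 23.5% in the controls, 25.0% in the CstF-64 library and 32.2% with CF Im 68 siRNA. The most 3′ site had 25.6%, 24.8%, 23.3% and 20.0%. The 14 loci with 7 sites under that choice had 16.7% and 17.7% at the most 5′ site in the controls and 28.6% with CF Im 68 siRNA, a smaller difference than with all libraries. The increase of use toward the 3′ side in the controls also depended on this choice. Without siRNA, the 210 5-site loci had 20.0% at the most 5′ and 20.3% at the most 3′ site, and in the 14 7-site loci the order was turned, with 16.7% and 10.5%.

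Use of a site can also be set against its own reads and those that remain 3′ of it, which leaves out the sites 5′ of it. Loci with at least 20 such reads, those of the site included, in every library were used. At the most 5′ site this measure is the share of locus reads already given, and adds nothing to it. In 4-site members the most 5′ site took 20.3% of reads in each control and 29.4% with CF Im 68 siRNA. The second site took 29.6% and 30.2% of the reads left in the controls, 31.8% in the CstF-64 library and 35.9% with CF Im 68 siRNA. The third took 49.0% and 49.4%, 50.5% and 51.3%. In 5-site members the difference of CF Im 68 siRNA from control siRNA shrank in the same way along the locus, from 15.8 to 26.1% at the most 5′ site, through 21.8 to 29.9% and 30.5 to 33.1%, to 50.2 and 50.1% at the last choice. With these sites the excess lay at the most 5′ choices, and at the choice between the last 2 sites the libraries lay close together in members with 4 to 6 sites. The sites were those chosen on all libraries. Under 5% in the mean of the controls were 16.8% of the most 5′ but 1.74% of the most 3′ sites. That choice can add to the excess at the most 5′ site, and the measure was not repeated with sites chosen on the controls alone.

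**Figure D2:**
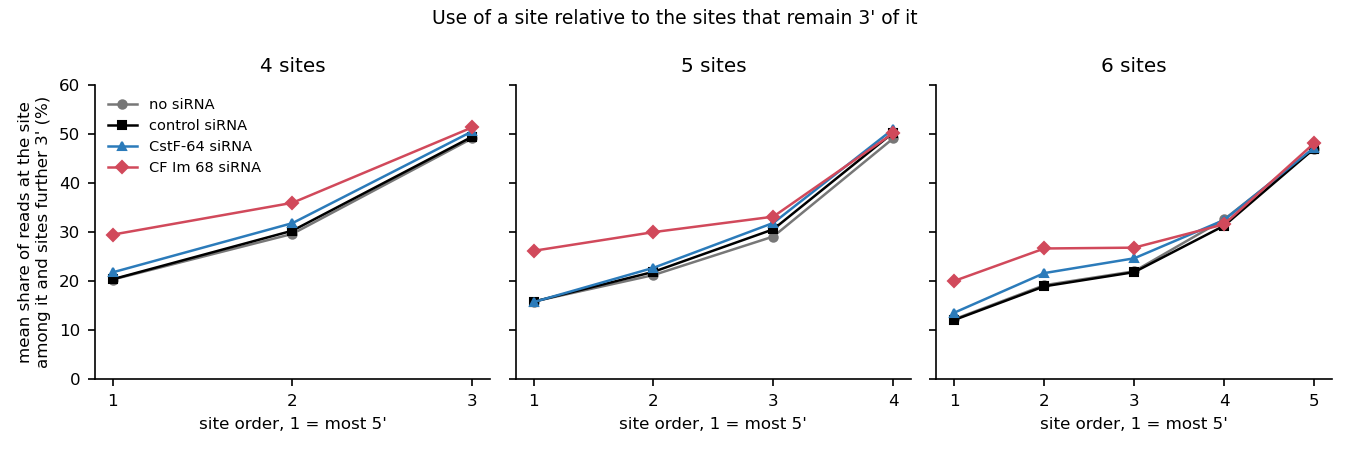
Mean percentage of reads at a site among its own and those of all sites 3′ of it (vertical axis) by site order (horizontal axis), for members with 4, 5 and 6 sites. The CF Im 68 points lie above the others at the most 5′ sites, for instance 26.1% against 15.8% at the most 5′ of 5 sites, and close to them at the last choice.

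Individual loci were compared by the reads of their most 5′ site against those of all their other sites, by Fisher's exact test (two-sided), with Benjamini-Hochberg adjustment over all 4984 loci with at least 2 sites and enough reads. A member was called when its adjusted p in the comparison with control siRNA fell under 0.05 and its most 5′ share differed from each control by at least 10 percentage points in the same direction. Such a call compares libraries and not conditions. With CF Im 68 siRNA the most 5′ share was higher in 355 members (36.4%) and lower in 14 (1.44%). Over all tested loci, members included, 26.9% were called higher and 1.99% lower. By the same test between the control libraries, with 10 points in 1 comparison, 60 members (6.15%) were higher and 47 (4.82%) lower with control siRNA than without, beside 7.38% and 7.91% of all tested loci. The median most 5′ share of the members was 11.9% without siRNA, 12.2% with control siRNA, 12.6% in the CstF-64 library and 21.5% with CF Im 68 siRNA. Against each control alone, without the condition on the other, 412 (42.3%) and 426 (43.7%) members were higher with CF Im 68 siRNA and 29 (2.97%) and 51 (5.23%) lower, for control siRNA and no siRNA in turn. All tested loci gave 32.2% and 35.7% higher, and 3.25% and 7.02% lower. Chosen on the control libraries alone, 284 of 857 loci (33.1%) were called higher with CF Im 68 siRNA and 10 (1.17%) lower, beside 23.4% and 1.77% of 4756 tested loci.

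Calls were also split by the use of the most 5′ site in the mean of the controls. Of 402 members with under 10% there, 158 (39.3%) were called higher with CF Im 68 siRNA and 0 lower, where a fall of 10 points was not possible. This class holds the sites retained only with the reads of depleted libraries, and with sites chosen on the controls alone 59 of 247 such loci (23.9%) were called higher. With 10 to 25% the counts were 117 (35.2%) higher and 3 lower of 332, and with 25 to 50% they were 62 (36.9%) and 6 of 168. Above 50% they were 18 (24.7%) and 5 of 73. The same classes of all tested loci had 35.9%, 30.1%, 34.7% and 12% called higher. Between the controls the percentages of members called higher and lower were 0.249% each under 10%, 5.72% and 3.01% in the next class, 17.9% and 11.3% in the one after, and 13.7% and 23.3% above 50%. With sites chosen on the controls alone, 36.7%, 38.9% and 33.7% of loci in the 3 upper classes were called higher with CF Im 68 siRNA.

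**Figure D3:**
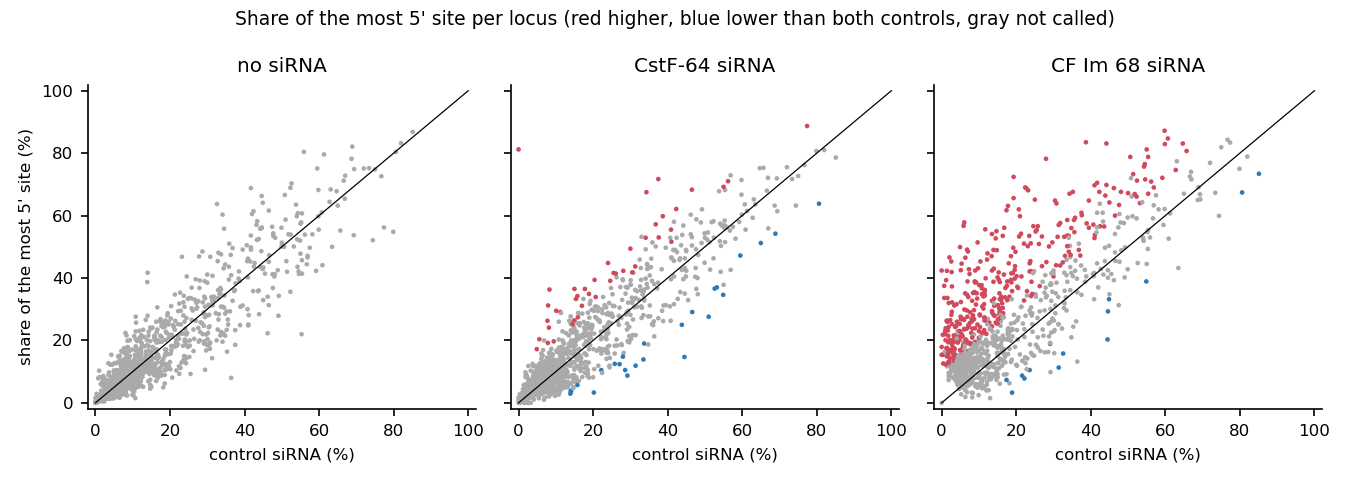
Share of the most 5′ site in each of the 975 members with control siRNA (horizontal axis, percent) and without siRNA, in the CstF-64 library or with CF Im 68 siRNA (vertical axis, percent), with the line of equality. Red and blue points are members called higher and lower than both controls, 355 and 14 with CF Im 68 siRNA, and 43 and 25 in the CstF-64 library.

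By span, 16 of the 87 members of up to 1000 nt (18.4%) were called higher with CF Im 68 siRNA. From 1001 to 2000 nt it was 64 of 154 (41.6%), from 2001 to 5000 nt 184 of 425 (43.3%), from 5001 to 10000 nt 76 of 265 (28.7%) and beyond that 15 of 44 (34.1%). All tested loci of these spans had 16.4%, 37.5%, 36.6%, 20.2% and 28.4%. By the distance from the most 5′ site to the next, the percentage of members was 29.8% up to 100 nt, 36.8% for distances of 101 to 500 nt and 44.9% from there to 1000 nt. It was 47.6% for 1001 to 2000 nt and 25.2% for longer distances. Over all tested loci the corresponding values were 13.7%, 25.7%, 34.3%, 40.8% and 23.1%. With sites chosen on the controls alone, loci in these classes of distance had 24.4%, 32.3%, 46.2%, 47.4% and 20.4%. In the classes of span they had 15.6%, 47.0%, 39.0%, 23.1% and 25.6%. Between the controls, 5.52 to 7.10% of members were called higher and 3.65 to 6.45% lower in these classes of distance, and the differences between classes were not tested. By number of sites, higher calls with CF Im 68 siRNA made up 212 of 629 members with 4 sites (33.7%), 99 of 245 with 5 (40.4%), 28 of 77 with 6 (36.4%) and 16 of 24 with 7 or 8 (66.7%). A site retained through its reads in a depleted library adds to this number. With sites chosen on the controls alone the percentages were 32.1%, 34.3%, 34.8% and 44.4%, the last over 18 loci.

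The site that dominated a locus differed between libraries, the controls included. Both controls had the same leading site in 82.4% of members. The most 5′ site was the most used in 165 members without siRNA, 170 with control siRNA, 174 in the CstF-64 library and 310 with CF Im 68 siRNA. The most 3′ site led in 28.4%, 27.3%, 24.9% and 18.3% of members in the same order. Among the 803 members with the same leading site in both controls, CF Im 68 siRNA put a site further 5′ in the lead in 22.2% and a site further 3′ in 23 (2.86%). In 114 members the new leading site was the most 5′ of the locus. In the CstF-64 library the numbers were 66 (8.22%) and 43 (5.35%). These 803 members were taken because the controls agreed, so the controls give no background for them. The same counts were not made over all tested loci, or with sites chosen on the controls alone. The choice of sites on all libraries can add to the lead of the most 5′ site with CF Im 68 siRNA.

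In the 355 members called higher, the loss of share was not at the end of the locus alone. The site whose share fell furthest from the mean of the controls was the most 3′ in 144 of them (40.6%), the one next to it in 131 (36.9%) and another inner site in 80 (22.5%). In all 629 4-site members, irrespective of calls, the site that gained most with CF Im 68 siRNA was the most 5′ in 339 (53.9%), the second in 155 (24.6%), the third in 70 (11.1%) and the most 3′ in 65 (10.3%). The second site in 71 of these loci (11.3%) was at least 10 points above both controls, and in 40 (6.36%) at least 10 points below both, a count made without a test. The corresponding numbers at the most 5′ site were 213 (33.9%) and 8 (1.27%), and at the most 3′ site 17 (2.70%) and 137 (21.8%). Loci with 3 sites had 33.9% and 1.89% at the most 5′ site, and 2.03% and 27.3% at the most 3′ site. Between the controls, in 1 comparison, 8.11% of the 4-site members were higher and 7.15% lower at the most 5′ site. At the second site it was 10.2% and 7.31%, and at the most 3′ site 9.54% and 11.9%. All these counts used sites chosen on all libraries, which can add to the gains at the most 5′ site. They were not repeated with sites chosen on the controls alone. The site that gained most was not counted over all tested loci or between the controls.

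The 8 members with the largest rises with CF Im 68 siRNA changed by 42.4 to 51.2 points from the nearer control. Coordinates are on hg19 (GRCh37). The locus with the largest rise lay on chromosome 11 (plus strand), with 4 sites from 13750435 to 13753889. Its most 5′ site had 6.62% of 302 reads without siRNA, 6.06% of 429 with control siRNA, 7.80% of 205 in the CstF-64 library and 57.8% of 896 with CF Im 68 siRNA (exact Clopper-Pearson 95% interval 54.5 to 61.1). The most 3′ site of this locus, 3454 nt further on, went the other way, with 48.7% and 36.4% in the controls, 26.8% in the CstF-64 library and 10.9% with CF Im 68 siRNA. Its second site, at 13751446, had 10.3%, 13.3%, 9.27% and 12.8%, within the range of the other libraries.

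On chromosome 14 (plus strand), 59970854 was the most 5′ of 4 sites that ended at 59972123. It had 2.76% and 5.88% in the controls, 5% in the CstF-64 library and 56.7% with CF Im 68 siRNA (49.1 to 64, 180 reads), and without the reads of that library it would have held under 5% of the locus. Here the most 5′ site was the weakest of the locus in all libraries but that of CF Im 68, where it was the strongest. Chromosome 1 (minus strand) held a locus from 185089024 to 185087237 in which the most 5′ site had 20% and 28.0% in the controls, 39.3% of only 56 reads in the CstF-64 library, and 78.2% with CF Im 68 siRNA. A 5-site locus on the same strand, from 85113024 to 85110161, had 10.9%, 19.3%, 22% and 65.6% at its most 5′ site, and the other 4 sites all had less with CF Im 68 siRNA than in either control.

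The next loci of this group on minus strands had long and short spans. From 106716681 to 106712597 on chromosome 5, a span of 4084 nt, the most 5′ share was 20.5%, 22.4%, 30% and 69.0%. From 107142813 to 107142098 on chromosome 13, a span of 715 nt, it was 28.0%, 19.3%, 32.7% and 72.4%. Reads of the chromosome 13 locus lay mostly at its ends. Its most 3′ site had 57.5% and 70.1% in the controls and 12.3% with CF Im 68 siRNA, and no inner site exceeded 12.2% in any library. On chromosome 7 (plus strand) the site at 87826069 was already the most used of 4 in the controls, at 39.0% and 38.7%, and had 59.8% in the CstF-64 library and 83.5% with CF Im 68 siRNA. The locus on chromosome 8, plus strand, stood apart: its most 5′ site at 42398138 had 0 reads in each of the other libraries, which by a limit of 3 counts of the total allows a share of up to 1.68%, 2.80% and 5.17%, and 87 of 205 reads (42.4%) with CF Im 68 siRNA. That site lay 9730 nt from the next and had all its reads in 1 library. Without it the locus would have too few sites to be a member.

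Among the 14 members called lower, the 6 largest falls covered 13.6 to 24.2 points. The largest was on chromosome 16 (plus strand), with 6 sites over 7767 nt from 58547318. Its most 5′ site had 48.6% of 613 reads without siRNA and 44.5% of 578 with control siRNA, but 14.7% of 224 in the CstF-64 library and 20.3% of 498 with CF Im 68 siRNA (16.8 to 24.1). The third site, at 58553002, took the lead, with 23.8% and 30.1% in the controls, 48.7% in the CstF-64 library and 48.2% with CF Im 68 siRNA. Both depleted libraries were on the same side of the controls there. The 2 most 5′ sites, 205 nt apart, both had lower shares, while the 4 others, more than 5 kb downstream, had higher shares than in either control.

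An inner site gained in other falls. On chromosome 15 (plus strand) the most 5′ site at 96875147 had 16.8%, 18.9%, 8.09% and 3.27%, and the third site at 96881698, 6551 nt downstream, had 41.6%, 32.4%, 49.3% and 66.1%. On chromosome 11 (minus strand) the site at 22848830 had 29.4%, 22.2%, 10.5% and 7.80%, and the third site at 22844461 had 33.9%, 38.4%, 39.7% and 55.8%. In each of these loci the falling site was separated from the rest by more than 4 kb. A 5-site locus on chromosome 3, plus strand, went from 32.1% and 31.4% to 11.3% with CF Im 68 siRNA at 179497526, and its second site, at 179502517, from 11.9% and 15% to 42.4% (64 of 151 reads). The remaining falls, at 130552355 on chromosome 9 and 93439679 on chromosome 7, both plus strand, started from controls that lay far apart, at 63.7% and 32.6% in the first case and at 66.3% and 44.6% in the other. The CF Im 68 values were 15.8% and 29.3%.

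The loci with the most sites showed the use of many positions at once. On chromosome 1, plus strand, 8 sites lay between 179323147 and 179327813. The most 5′ site had 1.5%, 1.75%, 1.63% and 19.4%, and was retained only through its reads in the CF Im 68 library. The next site, 563 nt downstream, had 32.6%, 23.9%, 22.8% and 23%, so that its CF Im 68 value lay between those of the control siRNA and CstF-64 libraries. The other 8-site locus, between 113108110 and 113116411 on chromosome 4 (plus strand), had 4 sites within 198 nt at its 5′ end. The most 5′ had 12.5%, 7.66%, 9.49% and 29.0%, and the second 0.784%, 3.07%, 5.11% and 12.4%. The third had 16.9%, 14.9%, 15.3% and 14.8%, and the fourth 11%, 23.8%, 27.0% and 16.6%, so that the CF Im 68 library was highest at the first 2 of these sites only. The second of them was itself retained only through its reads in the CF Im 68 library, so its high value there follows from the choice. The fifth site, 1944 nt from the start, had 27.1%, 22.6%, 16.1% and 7.51%. A 7-site locus on chromosome 2 (minus strand), from 20451050 to 20448473, had 3.03%, 2.59%, 3.07% and 45.3% (42.3 to 48.2, 1107 reads) at its most 5′ site, 1229 nt before the others. This site too passed the limit of 5% only through that library. All 6 other sites of this locus had lower shares with CF Im 68 siRNA than in each control. The smallest such difference was at the fifth site, at 20449463, with 4.43% against 6.38% and 4.82%.

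**Figure D4:**
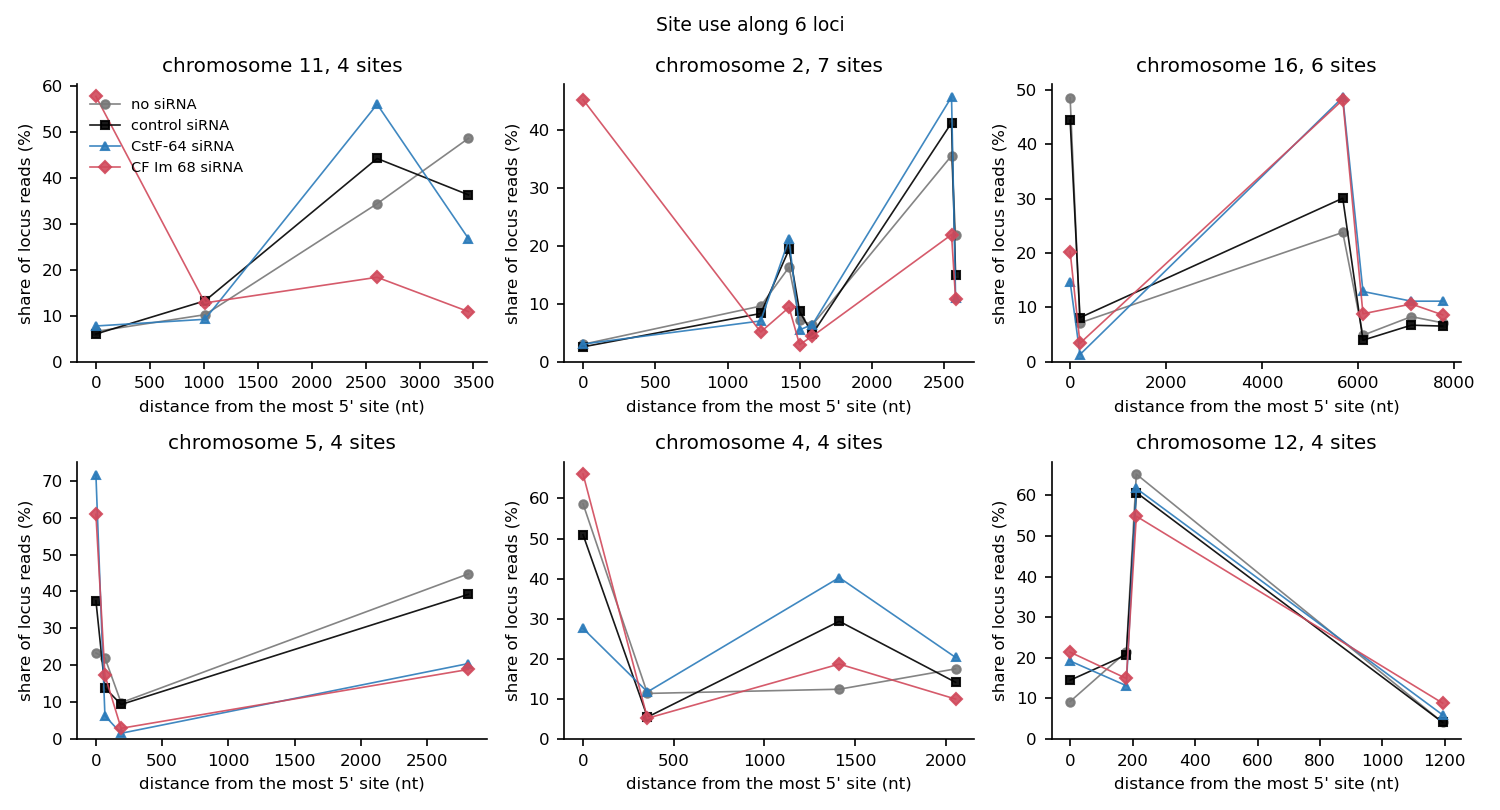
Share of locus reads (vertical axis, percent) at each site by its distance from the most 5′ site (horizontal axis, nt) in 6 loci: the largest rise and largest fall with CF Im 68 siRNA (chromosomes 11 and 16), the 7-site locus (chromosome 2), a rise and a fall in the CstF-64 library (chromosomes 5 and 4) and the locus with the most reads (chromosome 12). The CF Im 68 points start at 57.8% and 45.3% on chromosomes 11 and 2, where the other libraries start below 8%.

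The members with the most reads gave the narrowest intervals. Their changes at the most 5′ site were smaller than the largest rises given above, which were chosen for their size. On chromosome 12 (plus strand), 4 sites between 53873399 and 53874592 had 1355, 979, 730 and 968 RPM in all. The most 5′ site had 9.25%, 14.5%, 19.2% (18.2 to 20.3) and 21.4% (20.7 to 22.1). The controls themselves differed there, with intervals that did not overlap (8.86 to 9.64 and 13.9 to 15.1), so counting error does not cover the spread between libraries. On chromosome 17 (minus strand) the most 5′ site at 7147118 had 7.54%, 8.69%, 7.66% and 7.84%, a range of little more than 1 point. Its second site, at 7146913, had 34.9%, 36.1%, 52.9% and 36.3%, and the third, at 7143740, had 53.5%, 49.1%, 30.2% and 51.4%. The CstF-64 library stood apart there at inner sites, which the comparison of the most 5′ site does not see. On chromosome 19, plus strand, the site at 1435135 had 13.9%, 13.5%, 18.4% and 29.4%, a called rise with CF Im 68 siRNA, and the leading site at 1435681 had 54.6%, 43.9%, 40.9% and 33.4%.

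CstF-64 siRNA gave few calls. The most 5′ share was higher than in both controls in 43 members (4.41%) and lower in 25 (2.56%), beside 6.34% and 2.99% of all tested loci. Against control siRNA alone there were 61 (6.26%) higher and 37 (3.79%) lower, beside 8.19% and 4.21% of all tested loci. Against no siRNA alone 120 (12.3%) were higher and 87 (8.92%) lower, beside 15% and 11.2%. Between the control libraries themselves the same test gave 6.15% and 4.82%. In this library, the shallowest, a member had a median of 169 reads, against 346 to 395 in the others. The site that gained most was spread over the locus: in 4-site members it was the most 5′ in 27.0%, the second in 28.3%, the third in 24.5% and the most 3′ in 20.2%. The mean use of the most 3′ site was 26.5% in these members, 28.8% and 28.3% in the controls.

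Of the 5 largest rises in the CstF-64 library, 3 were also called with CF Im 68 siRNA. At 32601364 on chromosome 5 (plus strand), the most 5′ of 4 sites, the share was 23.3% and 37.5% in the controls, 71.7% in the CstF-64 library (65.7 to 77.1, 254 reads) and 60.9% with CF Im 68 siRNA. At 161928816 on chromosome 1 (plus strand) it was 22.3%, 34.3%, 67.5% and 67.0%. At 53237896 on chromosome 14 (plus strand), the most 5′ of 6, it was 6.64%, 7.94%, 31.2% (24 of 77 reads) and 22.4%. These loci had a high most 5′ share in both depleted libraries, which share their controls. A rise in the CstF-64 library without one with CF Im 68 siRNA was found at 133538754 on chromosome 3 (plus strand), with 11.7%, 8.29%, 36.3% and 12.9%. The largest value, at 17963712 on chromosome 17 (plus strand), rested on a site with 418 reads in the CstF-64 library (81.2% of the locus) and 0 in each of the others, which by the same limit allows up to 1%, 0.767% and 1.36%. Without that site the locus would have too few sites to be a member.

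The 5 largest falls in the CstF-64 library included the locus on chromosome 16 described above. The CF Im 68 library was not called in the 4 others. At 83345776 on chromosome 4 (minus strand) the most 5′ share was 58.7% and 51.0% in the controls, 27.6% in the CstF-64 library (21.8 to 34.0) and 66.1% with CF Im 68 siRNA. The highest share at the third site was also in that library, at 83344364, with 12.4%, 29.4%, 40.3% and 18.7%. At 56720881 on chromosome 15 (plus strand) the most 5′ share was 35.0%, 33.5%, 13.9% and 40.9%. At 9433311 on chromosome 3 (minus strand) it was 52.5%, 43.8%, 25% of 68 reads and 49.7%, and the most 3′ site, 5825 nt away, had 12.9%, 18.0%, 39.7% and 26.4%. At 105836478 on chromosome 14 (plus strand) it was 40.7%, 31.4%, 11.9% of 59 reads and 25.2%.

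Set directly against each other, the CF Im 68 library had a higher most 5′ share than the CstF-64 library in 356 members (36.5%) and a lower one in 29 (2.97%), by the test between 2 libraries. Over all tested loci the percentages were 26.6% and 3.35%. Of the 43 members called higher in the CstF-64 library, 24 were also called higher with CF Im 68 siRNA. Of the 25 called lower, 4 were also called lower with CF Im 68 siRNA. Both depleted libraries share their controls, and these pairs of calls were not counted over all tested loci. In 4 loci, each with 5 sites, the most 5′ share was called higher with CF Im 68 siRNA and lower in the CstF-64 library. They were chosen by these calls, after their values were seen, and are given as a description. At 2585202 on chromosome 17 (plus strand) the most 5′ share was 14% in each control, 3.86% in the CstF-64 library and 28.1% with CF Im 68 siRNA. At 100407299 on chromosome 14 (plus strand) it was 16.3%, 14.1%, 3.68% and 33.4%. At 160000015 on chromosome 1 (minus strand) it was 30.8%, 33.7%, 19.0% and 53.6%, and at 139494839 on chromosome 5 (plus strand) it was 50.1%, 53.2%, 37.0% and 64%.

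A measure over all sites of a locus gave the same picture. Sites were placed in equal steps from 0 at the most 5′ to 100 at the most 3′, and their read-weighted mean was taken as the mean site order. Its median over members was 55.8 without siRNA, 54.3 with control siRNA, 53.4 in the CstF-64 library and 44.8 with CF Im 68 siRNA. The median change from control siRNA was −8.42 with CF Im 68 siRNA (quartiles −15.2 and −2.42), with a lower value in 84.1% of members. In the CstF-64 library the median change was −1.26 (quartiles −5.25 and 2.25), with a lower value in 61.6%, and between control siRNA and no siRNA it was −0.372 (quartiles −4.43 and 3.44), with 52.7% lower. Over all tested loci the medians were −5.42, −0.998 and −0.172.

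**Figure D5:**
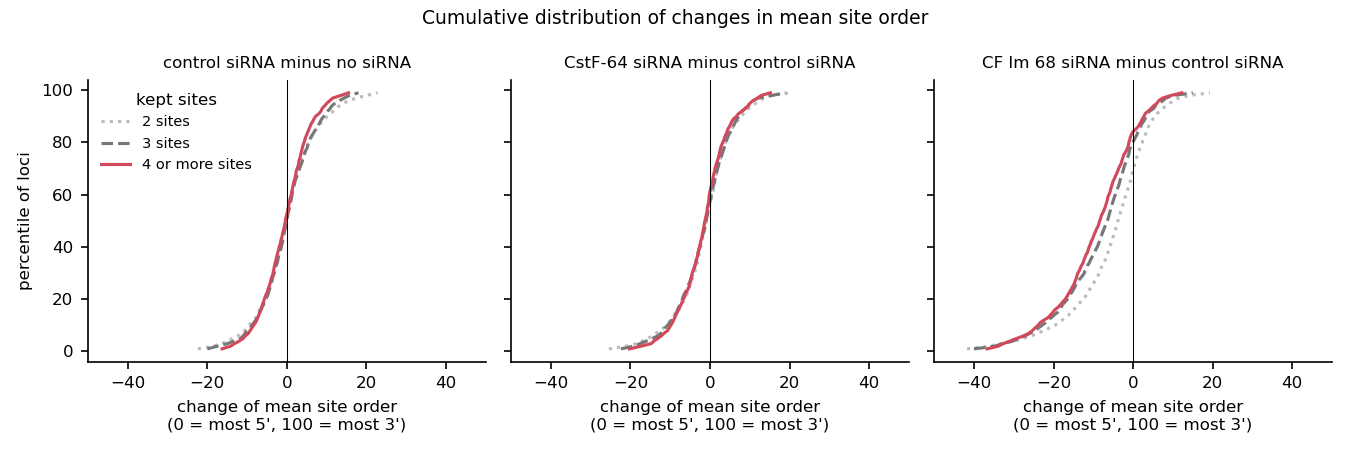
Percentile of loci (vertical axis) by the change of the mean site order (horizontal axis, on the scale of 0 for the most 5′ and 100 for the most 3′ site) for loci with 2, 3 and 4 or more sites. The curves of the site classes nearly coincide for control siRNA against no siRNA and for CstF-64 siRNA, and are shifted to the left for CF Im 68 siRNA, by a median of 8.42 with 4 or more sites.

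Members were set beside the 1426 loci with 3 sites and the 2583 with 2 sites and enough reads. The percentage called higher with CF Im 68 siRNA was 36.4% in members, 33.4% with 3 sites and 19.7% with 2 sites. The median change of the mean site order was −8.42, −6.45 and −3.81. The classes also differed in span, with medians of 3465, 2254 and 1065 nt, and in the median share of the most 5′ site with control siRNA, with 12.2%, 20.3% and 37.3%. The difference between classes was not tested, and the part of span and starting share in it was not tested. The number of sites was set with the reads of all libraries. A most 5′ site used mainly with CF Im 68 siRNA can thus move a locus to a class with more sites. With sites chosen on the controls alone, loci with 4 or more sites had 33.1% called higher and a median change of −6.88. Loci with 2 and with 3 sites were not summarized apart under that choice. In the CstF-64 library the percentage called higher was 4.41%, 6.45% and 7.01%.

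In nucleotides, the read-weighted mean distance of the ends of a member from its most 5′ site had a median of 1490 nt without siRNA, 1484 nt with control siRNA, 1391 nt in the CstF-64 library and 1144 nt with CF Im 68 siRNA. Against control siRNA the median change was −213 nt with CF Im 68 siRNA (quartiles −526 and −26.3 nt) and −32.1 nt in the CstF-64 library (−189 and 62.7 nt), and control siRNA against no siRNA gave −4.69 nt (−138 and 97.8 nt). Ends were at least 200 nt nearer in 493 members with CF Im 68 siRNA and at least 200 nt further in 80 (50.6% and 8.21%, beside 30.7% and 7.80% of all tested loci, whose median change was −56.8 nt). The counts in the CstF-64 library were 236 and 133 (24.2% and 13.6%, beside 15.8% and 10% of all tested loci), and between the controls 184 and 149 (18.9% and 15.3%, beside 13.6% and 11.2%). In the 24 loci with 7 or 8 sites the median change with CF Im 68 siRNA was −479 nt against control siRNA, with 21 loci nearer by at least 200 nt and 1 further. Sites retained through their reads in the CF Im 68 library can add to these changes, also in the loci with the most sites. The distances were not repeated with sites chosen on the controls alone.

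The spread of reads over the sites of a member was taken as the effective number of sites, the exponential of the Shannon entropy of the shares. It had a median of 3.28 without siRNA, 3.33 with control siRNA, 3.31 in the CstF-64 library and 3.42 with CF Im 68 siRNA. Per member, the median change from control siRNA was 0.0832 with CF Im 68 siRNA and −0.0363 in the CstF-64 library, with lower values in 42.5% and 54.9% of members. Control siRNA against no siRNA gave 0.0752. The leading site of a member had a median share of 50.1%, 49.7%, 50% and 47.4%.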

How the data were processed

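A-seq 3′ ends of HEK293 RNA were given as 1 file per library. In these, the authors deposited counts of reads at each genome position and strand, not normalized. The build, hg19 or GRCh37, is named in the submitters' processing notes. For the aligner and for the treatment of multiple matches and PCR copies, nothing is given in the sources used here. Running numbers in the files had gaps of 10.2 to 12.2%, so positions may have been removed before deposit. Whether and by what criteria is unknown here. Without molecular identifiers, intervals cover counting error only.

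The positions formed 1156237 clusters within 25 nt. On chromosomes 1 to 22 and X, 33723 sites had a mean of at least 1 RPM, computed here from library totals, and formed 18156 loci. Shares were tested as described in the report (Python 3.11.15, scipy 1.17.1), and the calls were tested on simulated data. The exact 95% interval of a 20% share at the minimum of 50 reads runs from 10.0 to 33.7%. Members, measures and the rule for named loci (largest rises and falls, most sites, most reads) were chosen with earlier results of these data known. No hg19 genome or annotation was used, so sequences, motifs and gene names are not given.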

Additional observations from a re-analysis of the deposited data

How the results depend on the processing

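Over 118 results under the alternative settings, 93 stayed within 1.5 times the original (counts and percentages) or within the 95% order-statistic interval of the original median, which treats loci as independent, and 25 did not. No median changed sign, while the balance of higher and lower calls between the controls turned at 20 points. Members numbered 352 with a smallest site share of 10% and 353 with a smallest site mean of 3 RPM, where 9.63% were higher between the controls. With sites chosen on the controls alone the median change of the mean site order with CF Im 68 siRNA was −6.88, with a site radius of 100 nt −9.21, and against no siRNA −9.24 (CstF-64 siRNA −1.90). With the 10% site share it was −9.58, and −1.71 with CstF-64 siRNA. With the most 3′ site compared in place of the most 5′ site, CF Im 68 siRNA gave 20.8% and the controls 9.85% toward the 5′ side. Comparing the 5′-side sites with the 3′-side sites gave 8.72% higher and 4.31% lower for CstF-64 siRNA, and 13.5% and 9.23% for the controls. At 20 points, 14.3% were higher and 0.205% lower with CF Im 68 siRNA, 1.03% and 0.205% with CstF-64 siRNA, and 0.718% and 0.923% between the controls. Against control siRNA alone 2.97% were lower with CF Im 68 siRNA, and against no siRNA alone 5.23%, with 12.3% higher and 8.92% lower with CstF-64 siRNA. The causes were not tested. No paired analysis was possible because each group had 1 library. With all libraries thinned to the smallest total, 36.8% were called higher with CF Im 68 siRNA and 4.02% with CstF-64 siRNA, beside 25.4% and 5.89% of 4638 tested loci. For the most 3′ site, the 5′-side sites and the limit of 20 points, shares over all tested loci were not counted. The same holds for calls between the controls under the alternative settings. Calls by control share, span, distance and number of sites were repeated with sites chosen on the controls alone, an alternative chosen after seeing the data.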

Other observations

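Cleavage positions within sites were alike along the locus. The most read position held a median of 62.8% of the reads of the most 5′ site, 62.3% at inner sites and 64.3% at the most 3′ site, and each kind of site had a median of 9 positions with reads. Of the 4373 sites, 14 had 0 reads in at least 1 library and 2 had at least 99% of their reads in 1 library, those on chromosomes 8 and 17 given in the report.

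There were 4 members called lower at the most 5′ site after both depletions, which share their controls. They were looked at after their values were seen. Besides the loci on chromosomes 16 and 11 (minus strand) given in the report, they lay at 65120449 on chromosome 11 (plus strand), with 52.0%, 54.9%, 34.6% and 38.9%, and at 36068740 on chromosome 1 (minus strand), with 80.4%, 80.6%, 63.8% and 67.4%. The chromosome 1 locus had 4731, 2832, 1736 and 2378 reads.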
